A study of Danio rerio with 14 samples.

Results

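The M libraries are 7 of the 14 libraries of a series on the intestine of zebrafish that overproduce agouti signalling protein, and they were chosen by the letter M that ends their sample titles. Of these 7, 3 came from transgenic fish labelled Tg(Xla.Eef1a1:Cau.Asip1)iim04 (replicates 9, 10 and 11) and 4 from Tubingen fish, the wild-type group (replicates 1 to 4). The other 7 libraries carry the letter H: 3 transgenic (replicates 13, 14 and 16) and 4 wild-type (replicates 5 to 8). The labels explain neither letter. Every library is labelled intestine, and the labels give neither age nor sex. Read by zebrafish naming rules, the label describes goldfish Asip1 under a frog Eef1a1 promoter, which is active in most cell types. All transgenic fish are of the 1 line, iim04, and their label names no background strain, so effects of the transgene, of the place where it inserted and of the strain cannot be told apart. The labels also do not say that each library came from a separate fish, so the p-values speak only for the variation among these 7 libraries, which may be technical.

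Agouti signalling protein is a secreted antagonist of melanocortin receptors, the receptors of melanocyte-stimulating and adrenocorticotropic hormones. In fish as in mammals it lightens the skin by opposing melanocortin 1 receptor, and an excess of it acts on central melanocortin receptors that restrain feeding and growth. In the intestine, absorptive enterocytes take up sugars, lipids, peptides and amino acids across a brush border, tight junctions seal the space between the cells, and secretory and immune cells guard the surface. The series addresses whether an excess of agouti bears on that barrier and on uptake of amino acids.

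Total counts were 11990694 to 12799311 in transgenic M and 9847910 to 13727372 in wild-type M. The libraries held almost no transcripts of egg or yolk: vitellogenins took at most 0.000969% of the counts of any M library and the ovary and oocyte list at most 0.0021%. Brush-border hydrolases and sugar carriers, markers of absorptive enterocytes, took 1.77% to 2.27% of counts in transgenic M and 1.76% to 1.92% in wild-type M, so the labelled tissue was represented in all 7. Neighbouring organs varied more. Exocrine pancreas genes took 3.88%, 3.33% and 4.25% of counts in transgenic M replicates 9, 10 and 11, against 0.936%, 0.230%, 4.70% and 0.739% in wild-type M replicates 1 to 4. Liver genes took 0.323% to 1.65% in transgenic M and 0.0686% to 4.096% in wild-type M, with wild-type M replicate 2 lowest for both organs. In whole-tissue RNA, fewer cells of a type and less RNA per cell cannot be told apart.

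The fish's own agouti genes had few counts. ASIP (ENSDARG00000077858) had 4 counts over the transgenic M libraries and 11 over the wild-type M libraries. A second agouti gene, asip2b, had 40 and 19, a mean of 1.08 and 0.412 CPM, too few to be tested. No row of the count table names the goldfish transgene, so its RNA was not measured here and the genotype labels could not be checked against it. Among the receptors agouti can bind, MC1R, mc2r and MC3R had 0 counts in all 7 libraries. MC4R had 6 counts in transgenic M and 0 in wild-type M, and MC5R (ENSDARG00000031348) had 7 and 2. The other gene annotated as MC5R, ENSDARG00000054946, had 0 counts in transgenic M and 3 in wild-type M. None of these genes had enough counts to be tested. Of 8 melanocortin genes that could be tested, 0 were called by edgeR, with 2 at unadjusted p under 0.05 and 1 called by DESeq2. MGRN1 (ENSDARG00000004796), a ubiquitin ligase of the agouti pathway, had 38.0, 34.9 and 36.4 CPM (counts scaled to library size) in transgenic M, against 46.4, 53.9, 48.6 and 54.6 CPM in wild-type M (log2 fold change -0.48, SE 0.12, adjusted p = 0.0761 by edgeR's quasi-likelihood test). Attractin (ATRN), an accessory receptor of agouti, was at 52.7 to 60.4 CPM in transgenic M and 44.9 to 68.5 CPM in wild-type M.

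Expression was compared between genotypes with the M libraries alone. Log2 fold changes are transgenic over wild-type, positive where transgenic M is higher, and a gene is called where edgeR's quasi-likelihood test gave a Benjamini-Hochberg adjusted p under 0.05. Of 17177 genes tested, 742 were called, 4.32%: 378 rose (2.2%) and 364 fell (2.12%) in transgenic M. The median log2 fold change was 1.83 among the genes that rose, -1.86 among those that fell and -0.01 over all genes tested. At least a 2-fold difference was seen for 625 of them and at least 8-fold for 211, of which 94 rose and 117 fell. For all 742, every transgenic value lay to 1 side of every wild-type value, as it did for 19.6% of all genes tested. An unadjusted p under 0.05 was found for 19.3% of all genes tested and a positive log2 fold change for 48.9%. The count depended on the fit. DESeq2 called 1695 genes (9.87%), a joint fit of all 14 libraries called 178, and leaving out 1 M library at a time gave 327 to 807, the lowest without transgenic M replicate 9 and the highest without wild-type M replicate 2.

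**Figure D1:**
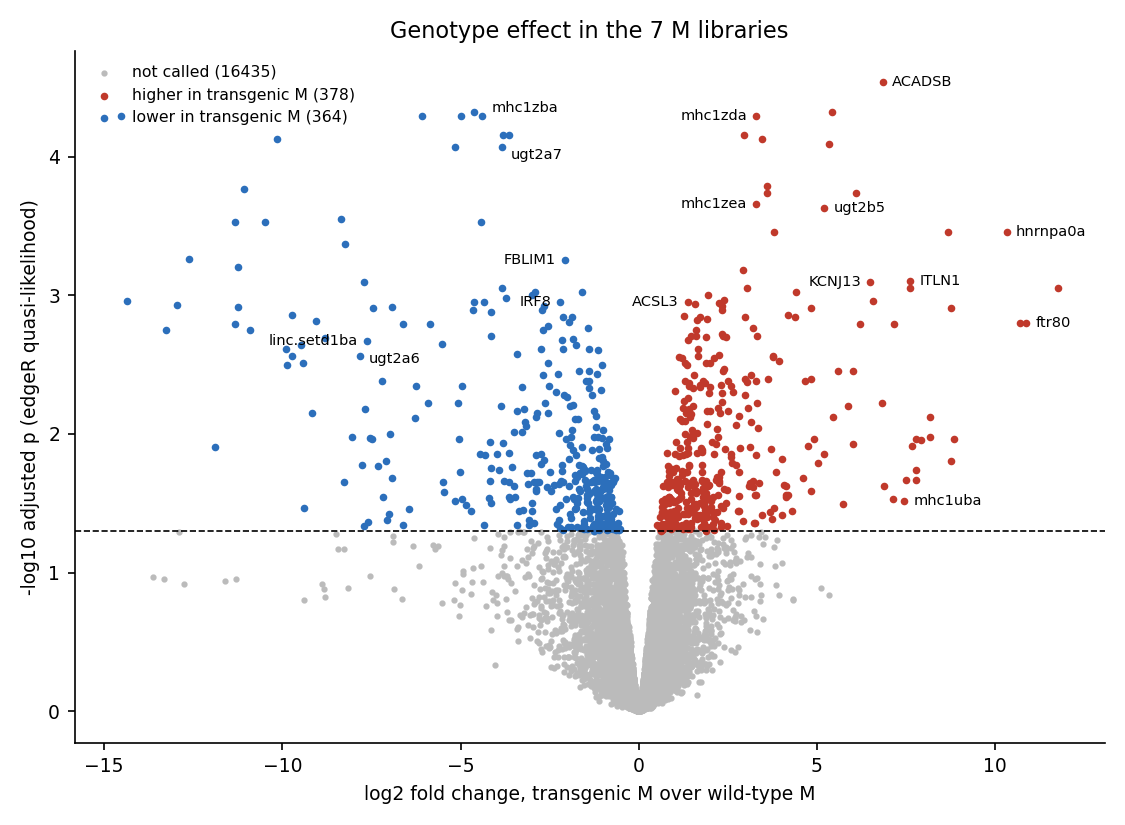
Log2 fold change (x axis, transgenic M over wild-type M) against -log10 of the adjusted p (y axis) for the 17177 genes tested in the 7 M libraries. Red points are the 378 genes that rose, blue points the 364 that fell, and the dashed line marks an adjusted p of 0.05; ACADSB, at 6.84, has the smallest p.

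Many of the largest differences were between detected and undetected. In all 3 transgenic M libraries 32 of the called genes had 0 counts, and in all 4 wild-type M libraries 15 did. The H libraries, which took no part in choosing these genes, showed the same pattern for most: 24 of the 32 had 0 counts in all transgenic H libraries, and 10 of the 15 had 0 counts in all wild-type H libraries. At least 1 count was present in every wild-type H library for 22 of the 32, and in every transgenic H library for 12 of the 15. Per library, si:dkey-18p12.4 (ENSDARG00000079703), a gene with a clone name only, had 0 counts in transgenic M 9, 10 and 11 and 3214, 2265, 3068 and 2764 in wild-type M 1 to 4. It also had 0 in the 3 transgenic H libraries, against 2777, 30, 1654 and 2316 in wild-type H 5 to 8. It and si:ch211-285c6.3 are named after their values were seen, as the genes at the ends of those lists. Per library, si:ch211-285c6.3 had 542, 356 and 459 counts in transgenic M and 0 in all 4 wild-type M libraries, and 290, 164 and 394 in transgenic H against 0 in all 4 wild-type H libraries. For 253 of the 742 called genes the annotation gave no symbol or only a clone name, so their roles are not described.

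The called genes were uneven along the deposited table, taken in its own row order. The densest run of 100 consecutive tested genes held 32 called genes, 5 higher and 27 lower in transgenic M, while the median run held 4. Members of that run were rnasel2, a secreted ribonuclease gene, and sc:d217, of no assigned role. sc:d217 had 0 counts in all 6 transgenic libraries, M and H, and 272 to 368 in wild-type M. This run was looked for after the values were seen.

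Among genes with a symbol, ftr80 (ENSDARG00000067661) had the highest log2 fold change, 10.88 (SE 0.51, adjusted p = 0.00157). It belongs to the finTRIM genes, a fish family of TRIM-type ubiquitin ligases linked to antiviral defence. Its level was 25.5, 16.4 and 17.0 CPM in transgenic M, against 0 counts in every wild-type M library, at least 307-fold higher (wild-type M set to a floor of 3 counts in total). hnrnpa0a, which encodes an RNA-binding protein, had 51.2, 19.2 and 53.2 CPM in transgenic M and a single read in all wild-type M libraries together, in replicate 3. Its summed CPM ratio was 1906 (95% interval of counting error 341.6 to 75333; log2 fold change 10.33, SE 0.69, adjusted p = 0.000349). ITLN1, an intelectin that binds microbial sugars, had 9.23, 14.9 and 7.60 CPM in transgenic M and 2 reads in wild-type M (log2 fold change 7.62, SE 0.59, adjusted p = 0.000793). For these 3 genes every transgenic library lay far above every wild-type one, and the groups were likewise separate for every called gene. All 3 were called with any 1 library left out. A separate gene with the symbol itln1 averaged 20.7 CPM in transgenic M and 20.0 CPM in wild-type M and was not called (log2 fold change 0.05, adjusted p = 0.970). The related genes itln2 and itln3 were at 1.37 and -1.24 (adjusted p = 0.283 and 0.676).

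ACADSB (ENSDARG00000098174), a mitochondrial acyl-CoA dehydrogenase of isoleucine breakdown, had the smallest p of all genes. It was at 23.6, 22.2 and 24.5 CPM in transgenic M, against 0.148, 0.189, 0.253 and 0.191 CPM in wild-type M (log2 fold change 6.84, SE 0.21, adjusted p = 2.91e-05). A second gene annotated as ACADSB, ENSDARG00000076780, moved the other way: it fell to 25.5, 25.7 and 26.8 CPM in transgenic M, against 56.4, 62.7, 58.1 and 53.2 CPM in wild-type M (log2 fold change -1.15, SE 0.12, adjusted p = 0.00249). Per length, the first gene was at 7.86 ± 0.638 FPKM in transgenic M and 0.0636 ± 0.0112 FPKM in wild-type M, and the second at 6.94 ± 0.333 FPKM and 15.1 ± 1.398 FPKM (SD, n = 3 and 4). Both calls held in all 7 fits that left out 1 library. Reads of near-identical copies can be split between them in counting. Whether this bears on the ACADSB pair or on the multigene families below was not tested.

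Other symbols at the top of the list were KCNJ13, cbln7, ACKR3 and rpgrip1. KCNJ13, an inwardly rectifying potassium channel of transporting epithelia, was at 17.5, 10.4 and 9.50 CPM in transgenic M, against 0.148, 0, 0.169 and 0.191 CPM in wild-type M (log2 fold change 6.49, SE 0.50, adjusted p = 0.000798). cbln7, of the secreted cerebellin family, averaged 33.99 ± 1.57 CPM in transgenic M and 0.445 ± 0.425 CPM in wild-type M (SD, n = 3 and 4; adjusted p = 0.00161). The chemokine scavenger receptor ACKR3 (ENSDARG00000058179) and rpgrip1, a ciliary protein gene, averaged 5.05 ± 0.960 and 8.66 ± 0.325 CPM in transgenic M, against 0.0396 ± 0.0459 and 0.393 ± 0.217 CPM in wild-type M (adjusted p = 0.00111 and 0.00144). ndufa9b, annotated as a respiratory complex I subunit, rose (log2 fold change 6.01, SE 0.69, adjusted p = 0.00352). It was the only member called of 96 respiratory chain genes, beside 4.32% of all genes called. That list leaned the other way, with 87 of the 96 negative and a median of -0.31, beside 48.9% positive over all genes. Of its 9 members with an unadjusted p under 0.05, 8 were lower. The size of this lean rested in part on wild-type M replicate 2, without which the list median was -0.11. These genes took 1.66% of counts in that library, against 0.927% to 1.19% in the other wild-type M libraries. In transgenic M they took 0.872% to 1.11%. KCNJ13, cbln7, ACKR3, rpgrip1 and ndufa9b were each called with any 1 library left out.

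Further genes that rose were clearly detected in wild-type M and had little spread. st6gal2b, a sialyltransferase of the Golgi, was at 66.3, 55.3 and 58.4 CPM in transgenic M, against 7.69, 8.12, 6.998 and 8.41 CPM in wild-type M (log2 fold change 2.94, SE 0.14, adjusted p = 6.98e-05). ARPP19 (ENSDARG00000032532), which encodes an inhibitor of protein phosphatase 2A, rose by 3.47 (SE 0.17, adjusted p = 7.42e-05). rab11bb, a GTPase of recycling endosomes, rose by 3.60 (SE 0.20, adjusted p = 0.000164). For all 3 genes the difference was far outside the spread of either genotype. They were named for a large fold or a small p, so this separation follows in part from the choice.

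Genes that fell included adhesion and signalling genes. SMAD3 (ENSDARG00000036096), a mediator of TGF-beta signals, was at 4.88, 4.37 and 3.54 CPM in transgenic M, against 30.2, 43.3, 28.4 and 26.9 CPM in wild-type M (log2 fold change -2.91, SE 0.24, adjusted p = 0.000939). FBLIM1, a filamin-binding protein of cell-matrix contacts, had 24.0, 22.4 and 22.8 CPM in transgenic M, against 104, 79.4, 101 and 104 CPM in wild-type M (log2 fold change -2.08, SE 0.15, adjusted p = 0.000554). NPTN (ENSDARG00000103002), neuroplastin, an adhesion molecule, fell (log2 fold change -4.35, SE 0.37, adjusted p = 0.00111), as did igsf9a, of the immunoglobulin superfamily (-1.60, SE 0.13, adjusted p = 0.000944). The long noncoding RNA linc.setd1ba had 1 read over transgenic M and 3.54 to 10.9 CPM in wild-type M (log2 fold change -7.64, SE 0.78, adjusted p = 0.00215). The sources used here do not say whether counting used strand, so reads of overlapping genes on opposite strands cannot be told apart. All of these calls held with any 1 library left out.

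Not all genes with a large fold were as even. rnasel2 was at 0.675, 2.54 and 0.173 CPM in transgenic M, against 319, 9.92, 481 and 77.3 CPM in wild-type M (log2 fold change -7.60, SE 1.61, adjusted p = 0.0434). lgals9l4, a galectin that binds galactosides, was at 0.450, 0.318 and 0 CPM in transgenic M, against 30.7, 140.4, 1.52 and 56.1 CPM in wild-type M (log2 fold change -7.70, SE 1.66, adjusted p = 0.0461). The wild-type libraries of these genes spread widely, and rnasel2 was called only without wild-type M replicate 2 and lgals9l4 only without wild-type M replicate 3 (adjusted p up to 0.151 and 0.150 in the other 6 fits of each). tgm5l, a transglutaminase gene, also fell (log2 fold change -7.10, SE 1.13, adjusted p = 0.0156), a call lost without any 1 of the transgenic libraries (adjusted p up to 0.0738). plekhs1.3, stm and PPEF1 fell by 5.48, 4.97 and 3.80 (adjusted p = 0.0260, 0.0292 and 0.0117). stm, starmaker, is known from the otolith, and PPEF1 is a calcium-binding protein phosphatase. Their calls were lost without 1 of 2 to 4 of the 7 libraries, always including transgenic M replicate 11 (adjusted p up to 0.1, 0.0866 and 0.0595).

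**Figure D2:**
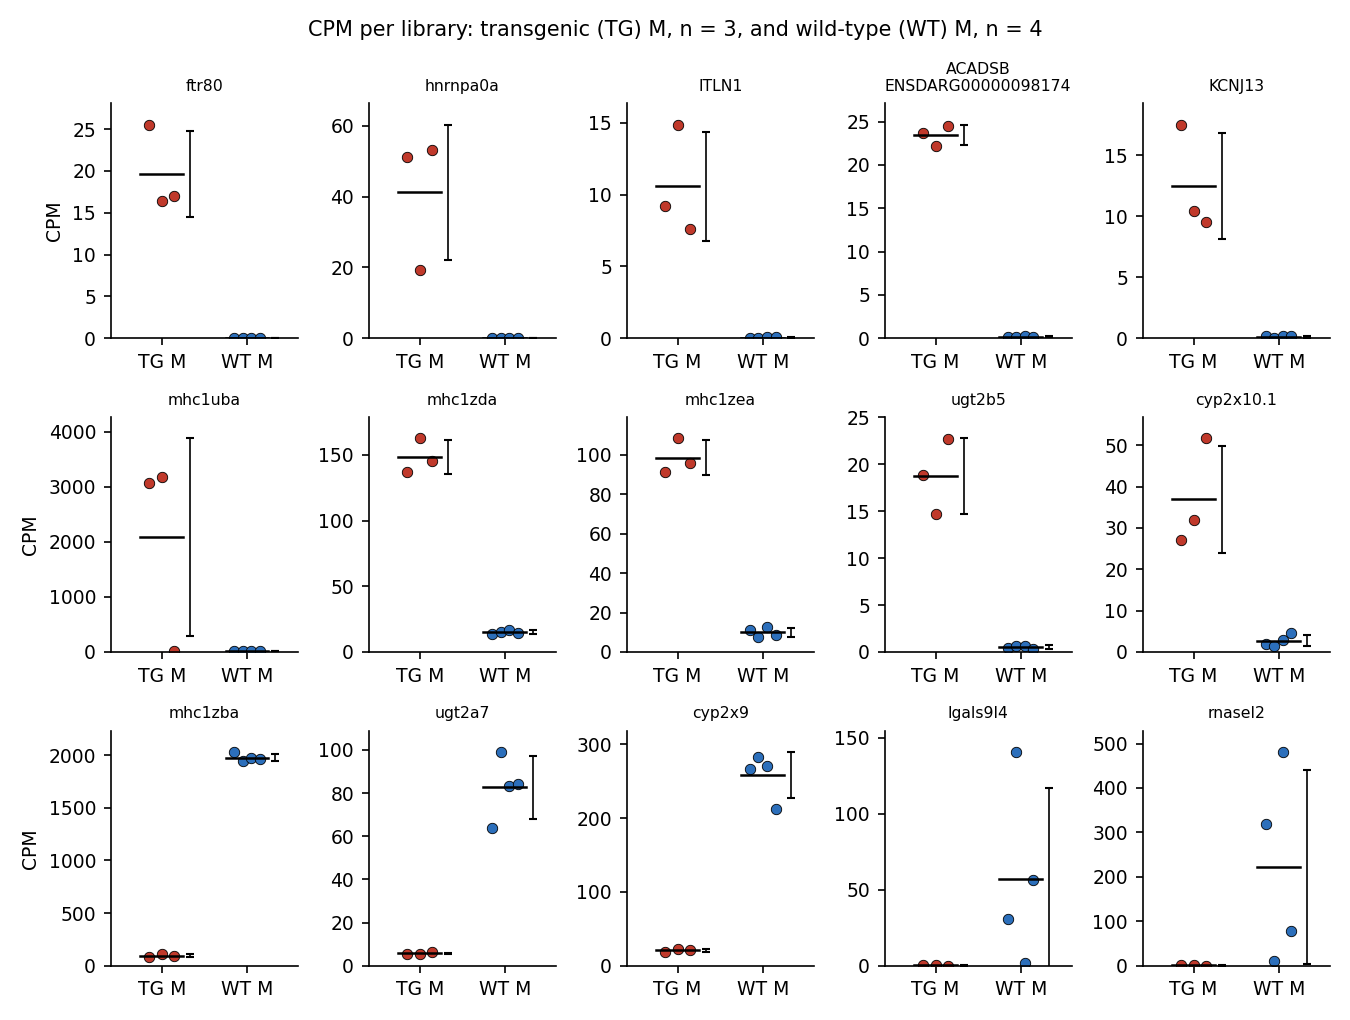
CPM (y axis, linear, from 0) of 15 genes in each M library: red points are the 3 transgenic M libraries (TG M), blue points the 4 wild-type M libraries (WT M), horizontal lines the means and side bars 1 SD each way. ACADSB and mhc1zba show narrow groups far apart, mhc1uba has 1 transgenic library at 14.7 CPM beside 3063 and 3182, and lgals9l4 and rnasel2 vary widely among wild-type libraries.

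Class I major histocompatibility genes, which encode proteins that present peptides to T cells, moved in opposite directions within the family. mhc1zba fell to 82.9, 113 and 88.7 CPM in transgenic M, against 2029, 1949, 1972 and 1962 CPM in wild-type M (log2 fold change -4.38, SE 0.19, adjusted p = 5.08e-05). mhc1zda rose to 137, 163 and 146 CPM in transgenic M, against 13.6, 15.3, 17.0 and 14.4 CPM in wild-type M (log2 fold change 3.30, SE 0.14, adjusted p = 5.08e-05), and mhc1zea to 91.2, 108 and 96.1 CPM, against 10.9, 7.74, 12.6 and 8.60 CPM (log2 fold change 3.30, SE 0.20, adjusted p = 0.000219). These 3 genes differed little within a genotype and were called with any 1 library left out.

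On the per-length scale, mhc1zba stood at 41.1 ± 5.81 FPKM in transgenic M and 844 ± 60.5 FPKM in wild-type M, mhc1zda at 81.7 ± 5.19 and 8.13 ± 0.560 FPKM, and mhc1zea at 45.4 ± 3.15 and 4.47 ± 0.698 FPKM (SD, n = 3 and 4). On this scale mhc1zda was the highest of the 3 in transgenic M and mhc1zba by far the highest in wild-type M.

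mhc1uba was uneven among the transgenic libraries. It was at 3063, 3182 and 14.7 CPM in transgenic M replicates 9, 10 and 11, against 10.3, 13.1, 12.9 and 11.4 CPM in wild-type M (log2 fold change 7.45, SE 1.44, adjusted p = 0.0304). Replicate 11 was close to the wild-type libraries, and the gene was called in only 1 of the 7 fits that left out a library, the one without replicate 11 (adjusted p = 6.52e-05, against up to 0.0979 in the other 6). ahr1a, a gene of the aryl hydrocarbon receptor family, had the same shape, with 48.3, 42.0 and 2.33 CPM in transgenic M, against 1.18 to 2.08 CPM in wild-type M (log2 fold change 4.29, SE 0.87, adjusted p = 0.0362), and was likewise called only without replicate 11 (adjusted p up to 0.110 in the other 6). mhc1uma had 0 counts in transgenic M and 62 in wild-type M (adjusted p = 0.0416, lost without any 1 transgenic library, up to 0.0968).

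Of 28 antigen presentation genes tested, 2 rose (mhc1zea and mhc1uba) and 2 fell (mhc1zba and mhc1uma); mhc1zda was not in that list. Over all genes, 2.2% were called higher and 2.12% lower. The list's median log2 fold change was 0.01, beside -0.01 over all genes. The constant chain b2ml was at 2249 to 2261 CPM in transgenic M and 1653 to 1908 CPM in wild-type M (log2 fold change 0.33, adjusted p = 0.255).

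Genes of xenobiotic metabolism also split. Glucuronosyltransferases attach glucuronic acid to drugs, bile pigments and steroids, and cytochromes P450 oxidise such compounds. Of 74 such genes tested, 5 rose and 6 fell, beside 4.32% of all genes called, and the list median was -0.11. ugt2b5 rose to 18.8, 14.7 and 22.7 CPM in transgenic M, against 0.370, 0.661, 0.675 and 0.287 CPM in wild-type M (log2 fold change 5.21, SE 0.32, adjusted p = 0.000236). ugt2a4 rose by 1.64 (SE 0.15, adjusted p = 0.00151). ugt2a7 fell to 5.63, 5.48 and 6.13 CPM in transgenic M, against 63.6, 99.0, 83.5 and 84.3 CPM in wild-type M (log2 fold change -3.84, SE 0.20, adjusted p = 8.48e-05). ugt2a6 fell to 3 reads over transgenic M, against 24.6, 6.23, 26.7 and 24.1 CPM in wild-type M (log2 fold change -7.82, SE 0.84, adjusted p = 0.00274). ugt2a5 fell (-0.98, adjusted p = 0.0443) and ugt5a2 rose (3.09, adjusted p = 0.0239), so members of the same family stood on both sides.

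The cyp2x genes, a fish cytochrome P450 subfamily, split in the same manner. cyp2x9 fell to 18.7, 22.1 and 21.6 CPM in transgenic M, against 267, 283, 270.0 and 213 CPM in wild-type M (log2 fold change -3.63, SE 0.17, adjusted p = 6.99e-05), and cyp2x8 fell by 1.56 (SE 0.26, adjusted p = 0.0174). cyp2x10.1 rose to 27.02, 32.0 and 51.6 CPM in transgenic M, against 1.92, 1.51, 2.87 and 4.59 CPM in wild-type M (log2 fold change 3.76, SE 0.41, adjusted p = 0.00274). Per length, cyp2x8 and cyp2x9 were at 40.8 ± 7.42 and 9.76 ± 0.339 FPKM in transgenic M and at 117 ± 28.6 and 119 ± 13.2 FPKM in wild-type M (SD, n = 3 and 4). The sulfotransferase sult1st1 fell by 2.24 (SE 0.32, adjusted p = 0.00981) and abcc2, an exporter of conjugates, rose by 1.09 (adjusted p = 0.0215). cyp2x8 lost its call without transgenic M replicate 9 or 11 and sult1st1 without replicate 9 (adjusted p up to 0.0751 and 0.0541). The 3 ugt2 genes with per-library values and cyp2x9 and cyp2x10.1 were called with any 1 library left out.

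Cholesterol synthesis was the list with the lowest median, -1.08 over 24 genes tested. These genes turn acetyl-CoA into cholesterol and are raised together by the factor SREBP2 when sterols run short. A negative log2 fold change was found for 21 of the 24, 3 were called, all lower in transgenic M (beside 2.12% of all genes called lower), and 15 had an unadjusted p under 0.05, all 15 lower. Over all genes tested, 19.3% had such a p and 48.9% a positive log2 fold change. IDI1, which isomerises the isoprenoid building block, was at 54.8, 57.1 and 87.7 CPM in transgenic M, against 227, 159, 127 and 211 CPM in wild-type M (log2 fold change -1.44, SE 0.27, adjusted p = 0.0274). LSS, which folds squalene epoxide into lanosterol, was at 14.8, 18.3 and 26.8 CPM in transgenic M, against 61.9, 44.7, 41.5 and 72.4 CPM in wild-type M (log2 fold change -1.46, SE 0.28, adjusted p = 0.0310). DHCR7, which makes cholesterol in the last step, was at 40.6, 91.1 and 83.5 CPM in transgenic M, against 328, 157, 226 and 275 CPM in wild-type M (log2 fold change -1.78, SE 0.36, adjusted p = 0.0348). All transgenic libraries were below all wild-type ones for these 3, and the groups were likewise separate for all 742 called genes.

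The 21 other members tested did not pass. SQLE (ENSDARG00000079946), CYP51A1 and MSMO1, which act between squalene and the late sterols, were at -2.02, -1.94 and -1.65 (adjusted p = 0.102, 0.104 and 0.119). Transgenic M replicate 9 was the lowest library for most of the 24 genes. The transcription factor srebf2 was at -0.87 (adjusted p = 0.282). DESeq2 called 14 of the 24. IDI1 and LSS lost their calls without transgenic M replicate 9 or 10 or wild-type M replicate 1 or 4 (adjusted p up to 0.108 and 0.117), and DHCR7 kept its call only without wild-type M replicate 2 (up to 0.0900 otherwise); the list median stayed between -1.44 and -0.85 with any 1 library left out.

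**Figure D3:**
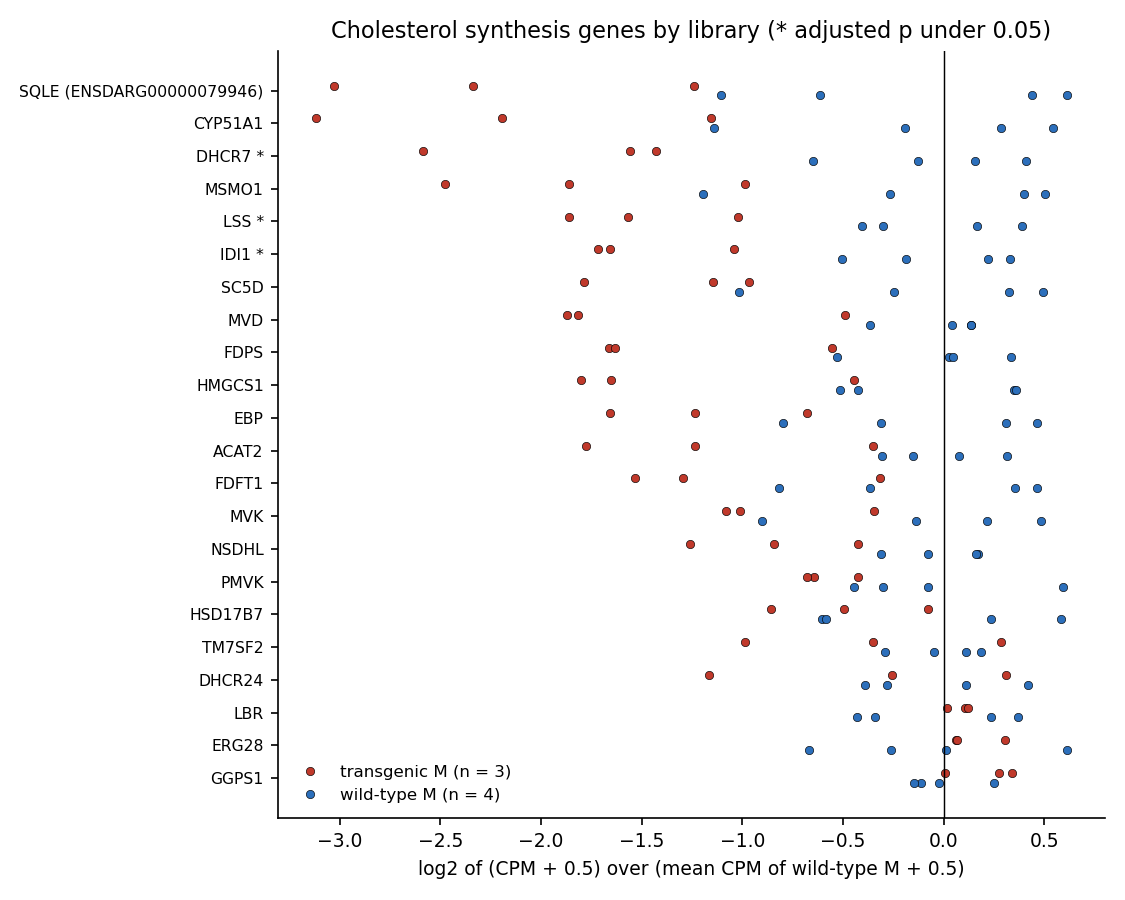
Each row is a cholesterol synthesis gene, 22 of the 24 tested, ordered by log2 fold change, and the x axis is the log2 ratio of a library's CPM to the wild-type M mean, each with 0.5 CPM added. Red points are the 3 transgenic M and blue points the 4 wild-type M libraries, and asterisks mark the 3 genes called (DHCR7, LSS and IDI1); transgenic points lie left of 0 for most rows.

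Genes of sterol handling were mixed, with 1 of 23 higher, 1 lower and a median of 0.22, beside 4.32% of all genes called. STARD4, a cytosolic sterol carrier, fell to 13.3, 10.6 and 11.8 CPM in transgenic M, against 51.1, 38.1, 22.9 and 40.6 CPM in wild-type M (log2 fold change -1.68, SE 0.27, adjusted p = 0.0168), a call lost without any 1 transgenic library or wild-type M replicate 4 (up to 0.0764). NPC2 (ENSDARG00000096979), which moves cholesterol out of lysosomes, rose to 7.51, 11.4 and 8.20 CPM in transgenic M, against 3.40, 3.59, 3.12 and 3.73 CPM in wild-type M (log2 fold change 1.39, SE 0.21, adjusted p = 0.0126; 0.0502 without transgenic M replicate 10). The other gene annotated as NPC2, ENSDARG00000090912, averaged 199 CPM in transgenic M and 171 CPM in wild-type M and was not called (log2 fold change 0.22, adjusted p = 0.565). ABCG8, the sterol exporter subunit, was at 0.53 and the sterol sensor NR1H3 at 0.41 (adjusted p = 0.169 and 0.201).

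The lipid absorption list and the fatty acid synthesis list held 5 called genes, all higher in transgenic M. Over all genes 2.2% were called higher. SLC27A4, the fatty acid transport protein of enterocytes, rose to 74.2, 66.4 and 53.0 CPM in transgenic M, against 17.1, 14.4, 18.0 and 17.6 CPM in wild-type M (log2 fold change 1.94, SE 0.16, adjusted p = 0.00100). ACSL3, an acyl-CoA synthetase of lipid droplets, rose to 62.9, 71.2 and 65.4 CPM in transgenic M, against 27.5, 25.4, 24.8 and 24.6 CPM in wild-type M (log2 fold change 1.38, SE 0.12, adjusted p = 0.00111). Both held with any 1 library left out. FABP1 (ENSDARG00000019357), a fatty acid binding protein, rose to 10.21, 10.8 and 10.3 CPM in transgenic M, against 1.04, 0.189, 2.45 and 0.765 CPM in wild-type M (log2 fold change 3.21, SE 0.58, adjusted p = 0.0241). The other gene annotated as FABP1, ENSDARG00000059227, was far more abundant and was not called. It averaged 603 CPM in transgenic M and 612 CPM in wild-type M (log2 fold change -0.02, adjusted p = 0.981). creb3l3b, a factor that drives apolipoprotein genes, and ELOVL5, an elongase of unsaturated fatty acids, rose by 0.91 and 0.74 (SE 0.19 and 0.16, adjusted p = 0.0445 and 0.0450).

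Of 37 lipid absorption and lipoprotein genes, 3 rose and 0 fell (median 0.22), and of 16 fatty acid synthesis genes 2 rose and 0 fell (median 0.26). By DESeq2, 6 and 4 members of these lists were called, in either direction, and 3 and 1 members had a negative log2 fold change with an unadjusted p under 0.05 in edgeR. ACSL1, an acyl-CoA synthetase on the first list, was at -1.02 (adjusted p = 0.161). FABP1 (ENSDARG00000019357) kept its call only without wild-type M replicate 2 or 3, creb3l3b only without transgenic M replicate 11 and ELOVL5 only without wild-type M replicate 2 (adjusted p up to 0.0821, 0.154 and 0.144 otherwise).

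Fatty acid oxidation and gluconeogenesis genes rose and fell: of 33 tested, 3 rose and 2 fell, with a median of 0.01. Over all genes 4.32% were called. PDK4, a kinase that restrains glucose oxidation, rose to 34.8, 61.7 and 68.3 CPM in transgenic M, against 20.4, 10.4, 17.5 and 16.3 CPM in wild-type M (log2 fold change 1.76, SE 0.30, adjusted p = 0.0188). pck2, the mitochondrial phosphoenolpyruvate carboxykinase, rose by 0.99 (SE 0.19, adjusted p = 0.0310). ACAA2, the last enzyme of the mitochondrial oxidation spiral, fell to 54.8, 59.7 and 55.3 CPM in transgenic M, against 97.6, 99.0, 112 and 96.0 CPM in wild-type M (log2 fold change -0.84, SE 0.12, adjusted p = 0.0108). The remaining 2 calls were the ACADSB pair.

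Glycolysis genes had a median of -0.54 over 26 tested, with 19 negative and 12 of the 13 with an unadjusted p under 0.05 lower, beside 48.9% positive and 19.3% with such a p over all genes. HK1, hexokinase, fell to 28.0, 23.4 and 10.96 CPM in transgenic M, against 66.8, 76.3, 45.0 and 56.0 CPM in wild-type M (log2 fold change -1.55, SE 0.34, adjusted p = 0.0476), and was the only member called. ENO1 (ENSDARG00000022456), enolase, was at -1.21 (adjusted p = 0.0510). HK1 kept its call only without wild-type M replicate 3 (up to 0.124 otherwise), pck2 only without wild-type M replicate 2 (up to 0.111), PDK4 lost it without transgenic M replicate 10 or 11 or wild-type M replicate 4 (up to 0.0706) and ACAA2 without transgenic M replicate 9 (0.0595).

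Amino acid carriers bear on the series' question. On the basolateral side and among general carriers, 3 of 24 genes tested rose, 0 fell, and the median log2 fold change was 0.61, with 19 positive. Over all genes, 2.2% were called higher and 48.9% were positive. SLC16A10, which lets aromatic amino acids out to the blood, was at 109, 106 and 119.9 CPM in transgenic M, against 71.8, 51.6, 56.7 and 49.997 CPM in wild-type M (log2 fold change 0.96, SE 0.16, adjusted p = 0.0186). SLC7A7, the light subunit of an exchanger that exports cationic amino acids, was at 124, 110.3 and 135 CPM in transgenic M, against 54.2, 78.6, 58.0 and 68.2 CPM in wild-type M (log2 fold change 0.93, SE 0.17, adjusted p = 0.0235). SLC43A2 (ENSDARG00000036848), which carries large neutral amino acids, had values of 18.9, 24.8 and 42.6 CPM in transgenic M, against 10.9, 5.19, 11.05 and 7.65 CPM in wild-type M (log2 fold change 1.72, SE 0.35, adjusted p = 0.0381).

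The second SLC43A2 gene, ENSDARG00000061120, had a similar value that did not pass, 1.55 (adjusted p = 0.106). The heavy subunit slc3a2a was at 0.32 (adjusted p = 0.265). The summed share of counts of this list was 0.246%, 0.275% and 0.274% in transgenic M, against 0.129%, 0.154%, 0.139% and 0.161% in wild-type M, with no overlap. SLC16A10 lost its call without any 1 transgenic library or wild-type M replicate 4 (up to 0.0685), SLC7A7 kept it only without wild-type M replicate 2 (up to 0.0954 otherwise), and SLC43A2 kept it in none of the 7 fits (0.0519 to 0.110).

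On the apical side, 1 of 18 genes tested rose and 0 fell, with a median of 0.34, beside 2.2% of all genes called higher. cltrn encodes collectrin, a partner of SLC6 carriers at the brush border, and was at 23.8, 11.4 and 5.09 CPM in transgenic M, against 0, 1.04, 0 and 0 CPM in wild-type M (log2 fold change 5.73, SE 1.12, adjusted p = 0.0320). It was called only without wild-type M replicate 2 (up to 0.122 otherwise). Carriers known to couple amino acid uptake to sodium current did not pass. SLC6A19 (ENSDARG00000018621), 1 of several genes annotated as this neutral amino acid carrier, was at 1227, 2008 and 2528 CPM in transgenic M, against 891, 309.6, 1029.8 and 688 CPM in wild-type M (log2 fold change 1.397, adjusted p = 0.117). SLC6A18, a carrier of glycine, was at 3.47 and SLC1A1, of acidic amino acids, at 1.97 (adjusted p = 0.0625 and 0.0760). SLC15A1 (ENSDARG00000044528), the proton-coupled peptide carrier, was at 0.84 (adjusted p = 0.0895). For these 4 genes every transgenic library lay above every wild-type one, as for 19.6% of all genes tested. SLC6A19 (ENSDARG00000056719) averaged 775 CPM in transgenic M and 1313 CPM in wild-type M (log2 fold change -0.76, adjusted p = 0.343). In wild-type M this was above the 729 CPM averaged by ENSDARG00000018621. SLC6A19 (ENSDARG00000091560) averaged 478 CPM in transgenic M and 308 CPM in wild-type M (log2 fold change 0.63, adjusted p = 0.161). The carrier slc36a4 was at -0.62 (adjusted p = 0.0890), so not every carrier leaned the same way. The genes of this paragraph other than cltrn were named after their values were seen.

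Genes of the amino acid response and of amino acid synthesis gave 3 of 27 higher, 0 lower and a median of 0.22. Over all genes 2.2% were called higher. GLUL (ENSDARG00000099776), glutamine synthetase, was at 100.3, 151 and 162 CPM in transgenic M, against 30.7, 36.1, 29.7 and 63.8 CPM in wild-type M (log2 fold change 1.78, SE 0.31, adjusted p = 0.0218). atf5a, a stress-response transcription factor, and SHMT2, the mitochondrial serine hydroxymethyltransferase, rose by 1.09 and 0.59 (SE 0.22 and 0.13, adjusted p = 0.0344 and 0.0488). GLUL lost its call without transgenic M replicate 10 or 11 or wild-type M replicate 1 (up to 0.0769). atf5a lost it without transgenic M replicate 9 or 10 or wild-type M replicate 1 or 4 (up to 0.120), and SHMT2 in all 7 fits (0.0588 to 0.153). Aminoacyl-tRNA synthetases had 0 of 20 called by edgeR (2 at unadjusted p under 0.05, 1 called by DESeq2), with AARS1 at -0.45 (adjusted p = 0.131).

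Ion transport included 3 genes that rose of 33 tested, and 0 that fell, with a median of 0.06, beside 2.2% of all genes called higher. Beside KCNJ13, SLC4A4 (ENSDARG00000044808), a basolateral sodium bicarbonate cotransporter, rose to 33.8, 36.9 and 37.6 CPM in transgenic M, against 21.7, 14.4, 20.7 and 18.5 CPM in wild-type M (log2 fold change 0.94, SE 0.16, adjusted p = 0.0221). The other gene annotated as SLC4A4, ENSDARG00000013730, was far more abundant and was not called. It averaged 559 CPM in transgenic M and 587 CPM in wild-type M (log2 fold change -0.07, adjusted p = 0.922). slc26a6, an apical anion exchanger that secretes bicarbonate, rose to 126, 139 and 66.1 CPM in transgenic M, against 45.5, 17.9, 26.4 and 14.3 CPM in wild-type M (log2 fold change 2.08, SE 0.43, adjusted p = 0.0395). SLC4A4 (ENSDARG00000044808) lost its call without any 1 transgenic library or wild-type M replicate 4 (up to 0.0821). The call of slc26a6 was kept only without transgenic M replicate 11 or wild-type M replicate 1 (up to 0.123 otherwise).

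Barrier genes showed no call, beside 4.32% of all genes called and 19.3% with an unadjusted p under 0.05. In lists this short, an absence of calls is not far from that share. Claudins, which seal tight junctions or form pores in them, had 0 of 15 called by edgeR, with 3 at unadjusted p under 0.05 and 1 called by DESeq2 (median 0.12). cldn15a, a pore-forming claudin of the gut, was at 133, 137 and 164 CPM in transgenic M, against 238, 321, 177 and 242 CPM in wild-type M (log2 fold change -0.76, SE 0.21, adjusted p = 0.102). The groups did not overlap, as for 19.6% of all genes tested, and the difference did not pass the test. Of the 3 claudins with an unadjusted p under 0.05, 2 were lower and 1 was higher. The higher one was cldn15b, at 29.0, 29.3 and 28.2 CPM in transgenic M, against 18.6, 26.3, 23.2 and 22.5 CPM in wild-type M (log2 fold change 0.35, adjusted p = 0.247). Its groups did not overlap either. Of the 15 claudins 8 were positive and 7 negative. Of 42 other tight and adherens junction genes, 0 were called by edgeR or DESeq2 and 3 had an unadjusted p under 0.05 (median -0.04). cgnb, a cingulin of the junctional plaque, was at -0.60 (SE 0.20, adjusted p = 0.156), and cdh1, E-cadherin, at 343 to 406 CPM in transgenic M and 417 to 451 CPM in wild-type M (adjusted p = 0.422). Goblet cell genes had 0 of 9 called by edgeR (3 at unadjusted p under 0.05, 3 called by DESeq2), with the mucin glycosyltransferase GALNT7 at -0.60 (adjusted p = 0.0573). The list median was -0.46, with 7 negative and 2 positive, and ran from -0.51 to 0.07 with 1 library left out. The mucin genes muc5.1 and muc5.2 were lowest, at -3.11 and -3.87 (adjusted p = 0.0770 and 0.0742). They had few counts, 15 and 2 over transgenic M against 158 and 42 over wild-type M.

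**Figure D4:**
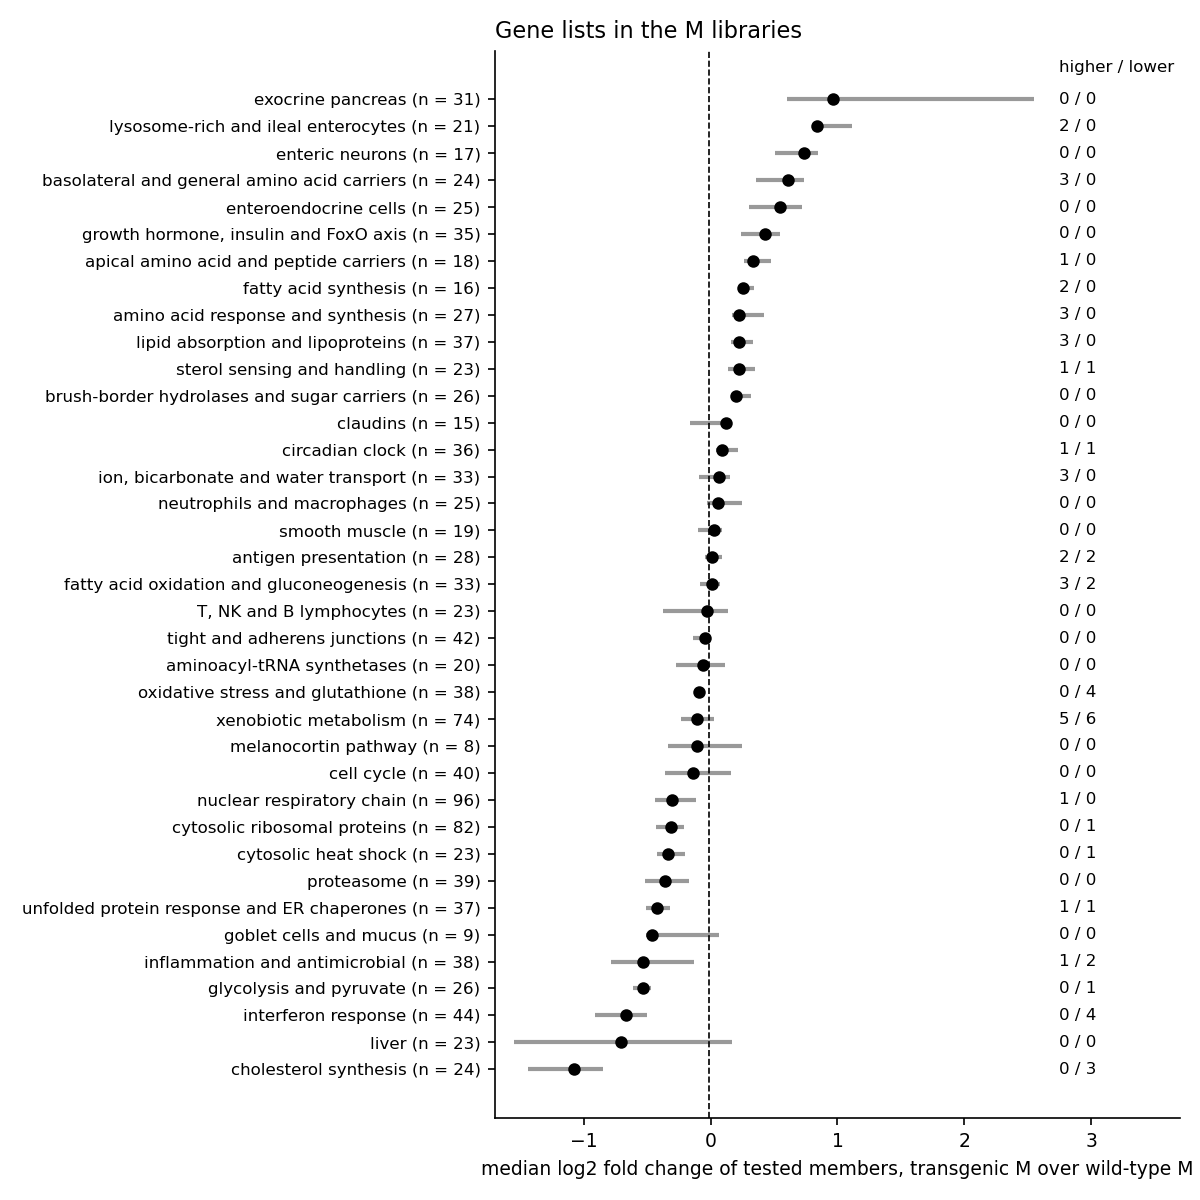
Median log2 fold change (x axis, transgenic M over wild-type M) of the tested members of 37 gene lists, with n members tested in brackets; black points are all 7 libraries, grey lines the range when 1 library is left out, and the dashed line the median of all genes tested. The columns at the right count members that rose and fell; cholesterol synthesis is lowest at -1.08, and the lines of exocrine pancreas and liver are the longest.

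Lysosome-rich enterocytes are cells of the hind gut that take up and digest whole protein. They share a list with genes of ileal enterocytes, such as FABP6 and SLC10A2. The median of this joint list was 0.84, with 2 of 21 genes higher and 0 lower. Over all genes 2.2% were called higher. LGMN, the lysosomal protease legumain, rose to 1266, 1009 and 1192 CPM in transgenic M, against 471, 599, 470.3 and 444 CPM in wild-type M (log2 fold change 1.22, SE 0.17, adjusted p = 0.00807), and held with any 1 library left out. ctsl.1, a cathepsin L protease, rose to 311, 193 and 385 CPM in transgenic M, against 39.5, 112, 40.1 and 61.1 CPM in wild-type M (log2 fold change 2.23, SE 0.42, adjusted p = 0.0277), a call kept only without transgenic M replicate 10 or wild-type M replicate 2 (up to 0.0940 otherwise). The defining uptake receptor CUBN, cubilin, was at 1244, 791 and 552 CPM in transgenic M, against 3.03, 303, 4.13 and 38.1 CPM in wild-type M (log2 fold change 3.31, adjusted p = 0.267). Its partners amn and dab2 were at 2.07 and 2.27 (adjusted p = 0.218 and 0.275). Not every member leaned higher: 17 of the 21 were positive and 4 negative. The lowest was ctsbb at -2.62 (adjusted p = 0.266), with slc51a at -0.59 and CTSB at -0.32 (adjusted p = 0.327 and 0.626). Wild-type M replicate 2 was the highest wild-type library for CUBN, amn, dab2 and ctsl.1. The share of the hind gut in each library was not measured, and its part in these values and in those of the amino acid carriers was not tested.

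Other cell types gave no call in edgeR; over all genes 19.3% had an unadjusted p under 0.05. Enteroendocrine genes had 0 of 25 called (2 at unadjusted p under 0.05, 0 by DESeq2; median 0.55), and the hormone gene PYY was at 34.7, 33.1 and 37.6 CPM in transgenic M, against 26.5, 21.2, 25.3 and 28.1 CPM in wild-type M (adjusted p = 0.112). Enteric neuron genes had 0 of 17 called (3 at unadjusted p under 0.05, 1 by DESeq2; median 0.73) and smooth muscle genes 0 of 19 (3 and 2; median 0.03), with NOS1 at 1.49 and MYL9 (ENSDARG00000008030) at -1.09 (adjusted p = 0.136 and 0.0759). Of the 17 neuron genes 13 were positive and 4 negative, and of the 19 muscle genes 10 were positive and 9 negative. At an unadjusted p under 0.05, 2 muscle genes were lower and 1 was higher, smtna at 0.95 (adjusted p = 0.144). Brush-border genes had 0 of 26 called (12 at unadjusted p under 0.05, 6 by DESeq2, median 0.20), with 18 positive and 8 negative. Of the 12, 8 were higher and 4 lower. The fructose carrier SLC2A5, at -0.91 (adjusted p = 0.0680), went against this lean. Exocrine pancreas genes had 0 of 31 called (2 and 1; median 0.97) and liver genes 0 of 23 (0 and 0; median -0.71). The medians of these 2 organ lists ran from 0.60 to 2.55 and from -1.55 to 0.17 with 1 library left out. Without wild-type M replicate 3, 7 of the 31 pancreas genes were called and 26 had an unadjusted p under 0.05, so the absence of calls there rests on that library. Of the 31 pancreas genes 27 were positive and 4 negative, and of the 23 liver genes 1 was positive and 22 negative. Against the lean of the pancreas list, cela1.7, a pancreatic elastase gene, had 0 counts in transgenic M. In wild-type M it was at 2.37, 0.755, 9.44 and 1.91 CPM (adjusted p = 0.0680). TTR, a liver carrier of thyroid hormone, was at -1.68 (adjusted p = 0.454).

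Interferon response genes had a median of -0.67 over 44 tested, with 37 negative, 4 that fell and 0 that rose. Over all genes, 48.9% were positive and 2.12% called lower. IRF8, a transcription factor of macrophages and other myeloid cells, fell to 35.0, 39.4 and 32.0 CPM in transgenic M, against 157, 204, 132 and 162 CPM in wild-type M (log2 fold change -2.21, SE 0.19, adjusted p = 0.00111), and held with any 1 library left out. irf9, the DNA-binding part of the interferon-activated complex, fell to 35.9, 33.3 and 31.0 CPM in transgenic M, against 46.4, 54.2, 50.6 and 49.1 CPM in wild-type M (log2 fold change -0.58, SE 0.12, adjusted p = 0.0440). SOCS1, a feedback inhibitor of cytokine signals, fell by 1.36 (SE 0.27, adjusted p = 0.0344), and ifit9, an interferon-induced gene, by 3.61 (SE 0.69, adjusted p = 0.0292). Wild-type M replicate 2 was the highest of the 7 libraries for 34 of the 44 genes. One of them, isg15, was at 11.4, 15.7 and 20.1 CPM in transgenic M, against 14.9, 185, 37.7 and 50.9 CPM in wild-type M (adjusted p = 0.188). Without that library the list median was -0.50. irf9 kept its call in none of the 7 fits (0.0526 to 0.137), SOCS1 in those without transgenic M replicate 9 or wild-type M replicate 3 (up to 0.0919 otherwise) and ifit9 in those without wild-type M replicates 1, 2 or 3 (up to 0.107 otherwise).

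Of 38 inflammation and antimicrobial genes, 1 rose (ITLN1) and 2 fell, with a median of -0.53, beside 4.32% of all genes called. cxcl8a, a chemokine that draws neutrophils, fell to 8.71, 6.91 and 2.504 CPM in transgenic M, against 38.5, 16.2, 24.9 and 34.8 CPM in wild-type M (log2 fold change -2.24, SE 0.47, adjusted p = 0.0420). ccl35.1, another chemokine, fell by 1.45 (SE 0.28, adjusted p = 0.0288). MMP9, a matrix protease of inflamed tissue, was at 9.76, 8.42 and 7.08 CPM in transgenic M, against 116, 12.9, 20.5 and 139 CPM in wild-type M (adjusted p = 0.102), and tnfa was at -1.56 (adjusted p = 0.166). MMP9 and tnfa were not called and were named after their values were seen. They therefore do not show which way the other uncalled members of the list leaned. cxcl8a kept its call only without wild-type M replicate 2 and ccl35.1 only without wild-type M replicate 2 or 4 (adjusted p up to 0.122 and 0.101 otherwise). Markers of neutrophils and macrophages had 0 of 25 called by edgeR (6 at unadjusted p under 0.05, 4 by DESeq2; median 0.06) and lymphocyte genes 0 of 23 (4 and 1; median -0.03). Their shares of counts were 0.112% to 0.136% in transgenic M and 0.107% to 0.120% in wild-type M for the first list, and 0.0205% to 0.0396% and 0.0232% to 0.0317% for the second. MFAP4 (ENSDARG00000111491), a macrophage marker in zebrafish, and nitr5, an immune receptor, were at 1.95 and 1.21 (adjusted p = 0.0528 and 0.0734). Neither list leaned with them. Of the 25 neutrophil and macrophage genes 14 were positive and 11 negative, and of the 23 lymphocyte genes 11 were positive and 12 negative. At an unadjusted p under 0.05, 3 were higher and 3 lower in the first list, and 1 was higher and 3 lower in the second.

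Of 37 genes of the unfolded protein response and the endoplasmic reticulum, 1 rose, 1 fell and 33 were negative (median -0.42). Over all genes, 4.32% were called and 48.9% were positive. ERO1A, an oxidase that supplies disulfide bonds, fell to 22.5, 25.8 and 38.8 CPM in transgenic M, against 91.0, 168, 87.4 and 101 CPM in wild-type M (log2 fold change -1.94, SE 0.31, adjusted p = 0.0152), while DERL3, which helps remove misfolded proteins, rose by 1.32 (SE 0.21, adjusted p = 0.0139). Of 38 oxidative stress and glutathione genes, 4 fell and 0 rose (median -0.09, 13 positive), beside 2.12% of all genes called lower. gpx1b, a glutathione peroxidase, fell to 381, 387 and 524 CPM in transgenic M, against 1298, 1660.3, 856 and 1228 CPM in wild-type M (log2 fold change -1.55, SE 0.26, adjusted p = 0.0186). gsta.1, prdx1 and GSR, a glutathione transferase, a peroxiredoxin and glutathione reductase, fell by 1.15, 1.05 and 0.90 (SE 0.20, 0.19 and 0.19; adjusted p = 0.0218, 0.0252 and 0.0448). HSP90AA1, a cytosolic chaperone, fell by 2.11 (SE 0.47, adjusted p = 0.0496), the only call among 23 heat shock genes. None of these 7 calls held in all 7 fits: all 7 were lost without transgenic M replicate 9, all 7 without replicate 10, and the highest adjusted p was 0.153, for HSP90AA1.

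Housekeeping and growth lists had few calls. Over all genes, 4.32% were called, 19.3% had an unadjusted p under 0.05 and 48.9% were positive. Cytosolic ribosomal protein genes had a median of -0.31 with 79 of 82 negative, and RPL22L1, a paralog of a ribosomal protein, fell by 1.01 (SE 0.18, adjusted p = 0.0239). It was the 1 call in that list, and was lost without transgenic M replicate 9 or 10 or wild-type M replicate 1 or 4 (up to 0.0915). Proteasome genes had 0 of 39 called by edgeR (7 at unadjusted p under 0.05, 2 by DESeq2; median -0.36), cell cycle genes 0 of 40 (2 and 1; median -0.14) and growth hormone, insulin and FoxO genes 0 of 35 (7 and 5; median 0.43). PSMC4, CCND1 and IGF1R (ENSDARG00000034434) had the smallest p of these lists, at -0.49, -1.07 and 1.59 (adjusted p = 0.107, 0.0967 and 0.0598). Of 36 clock genes, the nuclear receptor rorcb rose by 1.49 (SE 0.30, adjusted p = 0.0349) and the light-responsive photolyase relative cry5 fell by 1.01 (SE 0.16, adjusted p = 0.0157). Both were lost without any 1 transgenic library or wild-type M replicate 4, and rorcb also without wild-type M replicate 3 (up to 0.120 and 0.0711).

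The H libraries share no sample with the M libraries, so genes called in M were looked up there. Wild-type H replicates 6 and 7 held the most ovary and oocyte transcripts, 2.03% and 0.366% of counts beside at most 0.0936% in any other library, and the H comparison was run with and without them, a choice made with the data seen. Dropping them does not make the H groups alike: vitellogenins took 18.2%, 7.95% and 21.0% of counts in transgenic H 13, 14 and 16, against 5.79e-05%, 0.002%, 0.000417% and 6.18% in wild-type H 5 to 8. The part of this yolk protein RNA in the H values was not tested. With all 7 H libraries 11 of 17523 genes were called (0.0628%), and without those 2 libraries 79 of 17580 (0.449%). Of the genes called in M, 707 were tested in the smaller H set, and 658 of them (93.1%) had the same direction, beside 64.9% of all genes tested in both. With all H libraries the shares were 88.9% and 58.9%. Among genes with at least an 8-fold difference in M, 175 of 179 kept their direction. Called in both, in the same direction, were 49 genes, which is 62% of the 79 called in H and 6.6% of the 742 called in M. They included ftr80, hnrnpa0a, ACADSB (ENSDARG00000098174), KCNJ13, cbln7, ugt2b5, cyp2x10.1, ARPP19 (ENSDARG00000032532), mhc1zea, mhc1zda, ugt2a7, mhc1zba and plekhs1.3. With all 7 H libraries 4 of the 49 were called: zgc:174862, ACADSB (ENSDARG00000098174), ENSDARG00000099511 and sc:d217. There ftr80 was at 10.93 (adjusted p = 0.0591) and hnrnpa0a at 2.71 (adjusted p = 0.540), so most of the shared calls rest on leaving out wild-type H 6 and 7. No gene called in M was called in the opposite direction in H.

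List medians in M and H are set side by side here; the differences between them were not tested. The list of lysosome-rich and ileal enterocytes had a median of 0.84 in M and -0.64 in H without wild-type H 6 and 7. Of its 21 genes, 7 had the same direction in both. With all 7 H libraries its H median was 0.02, with 11 of 21. Exocrine pancreas had medians of 0.97 and -1.47, liver -0.71 and 3.21, glycolysis -0.54 and 0.15 and interferon response -0.67 and 0.04; with all H libraries the H medians were -0.76, 2.297, 0.09 and 0.39. Cholesterol synthesis was at -1.08 in M and -0.51 in H, with the same direction for 22 of 24 genes, and at -0.29 with all H libraries, with 18 of 24. Ribosomal proteins were at -0.31 in M and -0.25 in H, with the same direction for 80 of 81, but at 0.34 with all H libraries, with 5 of 81, so their direction in H turns on those 2 libraries. IRF8 was at -2.21 in M and -0.16 in H (0.46 with all H libraries), LGMN at 1.22 and -0.21 (0.34), ctsl.1 at 2.23 and -1.76 (-0.81), and SLC16A10 at 0.96 and 0.70 (1.196).

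The difference between the genotype effects in M and in H was tested over all 14 libraries. edgeR called 0 of 18619 genes, with 1285 at unadjusted p under 0.05 (6.9%) and a smallest adjusted p of 0.101, while DESeq2 called 24. Without wild-type H 6 and 7 edgeR again called 0, with a smallest adjusted p of 0.136. Of the named genes, st6gal2b, IGF1R (ENSDARG00000034434), hnrnpa0a and IRF8 had the smallest p over all 14 libraries. Their effects in M minus effects in H were 1.80, 3.68, 7.67 and -2.62 on the log2 scale. Each had an adjusted p of 0.667 by edgeR's quasi-likelihood test. Without wild-type H 6 and 7 the differences were 1.92, 1.32, 2.499 and -2.09 (adjusted p = 0.638, 0.803, 0.776 and 0.638 by the same test). The sizes for IGF1R (ENSDARG00000034434) and hnrnpa0a thus rested in large part on those 2 libraries. Without them the effects in H of these genes went from -1.93 to 0.24 and from 2.71 to 7.77. No gene was therefore shown by edgeR to respond differently in M and H, and a missed threshold does not show that the effects were equal.

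**Figure D5:**
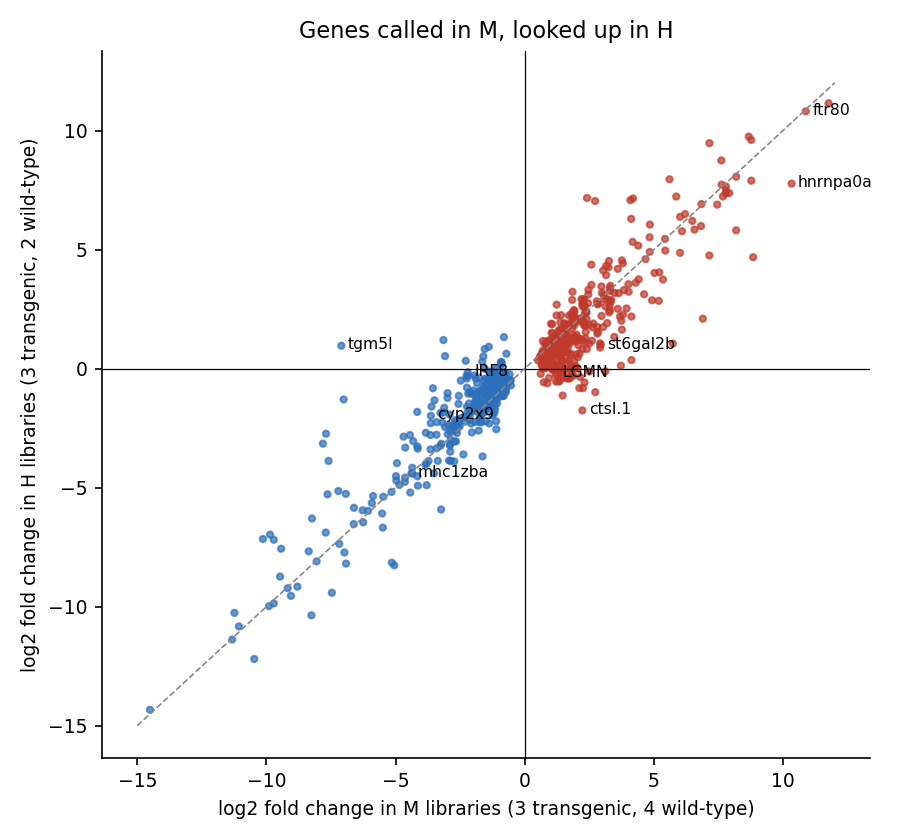
Log2 fold change in the M libraries (x axis) against that in the H libraries without wild-type H 6 and 7 (y axis) for the 707 genes called in M and tested in both; red genes rose and blue genes fell in M, and the dashed line marks equal values. Most points lie in the lower left and upper right, 658 of 707, and ctsl.1, LGMN and tgm5l are among those on the other side of 0.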

How the data were processed

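Per the labels' protocols, intestinal RNA was extracted with Trizol and poly-A selected libraries were made with a stranded kit. The submitters' processing notes name STAR 2.7.3a as well as featureCounts 1.6.3, beside FastQC and edgeR. They also name GRCz11, mm10 and GRCm38.p6 and give no build a role, and all 32520 identifiers are zebrafish Ensembl ones. Raw counts of reads for each gene were deposited with no normalization. FPKM values, also deposited by the authors, are scaled for gene length and depth and serve here only for levels per length. Symbols came from a supplied reference table (29201 identifiers matched), as did 1108 of 1183 names in the gene lists; a symbol held by several genes is printed with its identifier.

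Counts of the 7 M libraries were tested alone with edgeR 4.0.16 in R 4.3.3 (filterByExpr, TMM, glmQLFit, glmQLFTest, Benjamini-Hochberg over all genes tested, threshold 0.05). There were 3 comparisons across genes: genotype in M, genotype in H, and their difference over all 14 libraries. The SE is the absolute log2 fold change divided by the square root of F, and restates the test. CPM used TMM-scaled totals. Folds against a group with 0 counts used a floor of 3 counts over the group, and the ratio against 1 read has an exact 95% interval; both cover counting error only. Alternatives were DESeq2 1.42.0, limma-voom (limma 3.58.1), DESeq2-style size factors, no filter on low counts, joint fits, and leaving out each library.

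Members and gene lists were chosen with earlier results of these data known. Named genes were the 12 highest and 12 lowest log2 fold changes and the 6 smallest p each way among called genes that averaged 5 CPM or more in the genotype with the higher mean and had a symbol that is not a clone name, up to 8 called members of each list (or the 1 with the smallest p), and the 4 of these with the smallest p in the test of the difference. Other genes given with values were named after their values were seen. The test was checked on simulated counts. Single-gene values of 2 cholesterol synthesis genes are not reported here.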

Additional observations from a re-analysis of the deposited data

Results flagged for a closer look

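Among 96 named genes, 7 had 1 wild-type M library set apart from the other 3, by a gap test that chance meets in about 1 in 20 groups of 4. A count of 7 in 96 is not far above that share. The test compares the gap with the range, so near 0 counts a few reads can meet it, as for hnrnpa0a and KCNJ13. In wild-type M replicate 2, ugt2a6 was at 6.232 CPM where the other 3 were at 24.1 to 26.7 CPM, FBLIM1 at 79.42 CPM beside 101 to 104 CPM, and CCND1 at 207 CPM beside 116 to 119 CPM. The same library had the only reads of cltrn among wild-type M libraries, 1.039 CPM, and none of KCNJ13, 0 CPM beside 0.148 to 0.191 CPM. hnrnpa0a had its single wild-type M read, 0.08432 CPM, in replicate 3. DERL3 was at 5.102 CPM in wild-type M replicate 1 beside 3.78 to 3.82 CPM. CCND1 was not called, and the other 6 genes were. Wild-type M replicate 2 was also the lowest M library for exocrine pancreas and liver genes and the highest for interferon genes (0.380% of counts, against 0.185% to 0.254% in the other wild-type M libraries); whether these go together was not tested.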

How the results depend on the processing

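Over all M genes, 742 were called (378 higher, 364 lower). DESeq2 gave 1695 (769 higher, 926 lower) and the joint fit of 14 libraries 178 (95 and 83); without wild-type H 6 and 7 the joint fit, an alternative chosen after seeing the data, gave 722. Leaving out 1 M library gave 327 to 807 calls (173 to 406 higher, 154 to 401 lower). limma-voom, DESeq2-style size factors and no filter gave 714, 742 and 729. Members of lists called were 61, against 172 with DESeq2, 12 in the joint fit of 14 and 23 to 69 with 1 library left out. In H, 11 genes were called, 678 with DESeq2, 79 without wild-type H 6 and 7, and 0 to 48 with 1 library left out. The difference between M and H had 0 calls with 1285 at unadjusted p under 0.05, and 24 with DESeq2. No named gene changed sign. Of 79 named genes called, 31 were called in every fit that left out 1 library and 36 in 3 or fewer, 78 by DESeq2, 68 by limma-voom and 23 in the joint fit of 14. Fits without a library have fewer samples; other causes were not tested. No paired analysis was possible because the genotypes share no replicate numbers. Genes near 0 counts in 1 genotype have folds limited by depth.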
